A study of Mus musculus with 12 samples.

Results

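The chemokines and chemokine receptors examined here were the 51 genes whose platform symbol belongs to the Ccl, Cxcl, Ccr or Cxcr families or is Xcl1, Xcr1, Cx3cl1 or Cx3cr1, out of 22180 genes with a probe set of their own. There were 34 ligands (19 Ccl, 13 Cxcl, 1 Cx3cl and 1 Xcl) and 17 receptors (9 Ccr, 6 Cxcr, 1 Cx3cr and 1 Xcr). The genes were chosen by name, not by their values. Their RNA was measured on 12 Affymetrix arrays, 3 in each of 4 groups of a mouse NOTCH1 leukemia model. All 4 groups carried the genotype R26rtTA;Col1a12lox-4F2A, which combines a reverse tetracycline transactivator at the Rosa26 locus with an inducible cassette of reprogramming factors, so the leukemia carried the cassette as well. The first group was Notch-1 leukemia cells from the spleen. GFP+ colonies are partially reprogrammed by their labels, GFP- colonies are reprogrammed, and the fourth group was an established culture of induced pluripotent stem (iPS) cells. The labels describe both colony groups and the iPS cells as colonies from the leukemia cells, and do not say what GFP marks. All leukemia titles carry the same leukemia number, and although titles name the arrays as biological replicates, no label ties them to different mice or cultures. The p-values therefore measure only how far these arrays spread. That spread was estimated over all 12 arrays, so the colony arrays also set it for iPS cells against leukemia.

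Chemokines are small secreted proteins that steer the migration of leukocytes by binding G protein-coupled receptors on the cell surface. The receptors couple mainly to inhibitory G proteins and signal through phosphoinositide 3-kinase gamma, phospholipase C beta and the Rac activator Dock2 to the actin cytoskeleton, and arrestins switch them off. In the T lineage, Cxcr4 and its ligand Cxcl12 act in bone marrow and thymus, and Ccr7 and Ccr9 guide thymocytes and T cells. Ccr7 is also known as a Notch1-regulated receptor in T cell leukemia.

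The labels were set against marker lists. T lineage genes (9 of 12 measured) averaged 10.50 to 10.54 on the log2 scale on the leukemia arrays and 5.34 to 6.66 on all others. Pluripotency genes (8 of 8 measured) averaged 9.62 to 9.69 on the iPS arrays and 5.09 to 5.49 in leukemia. In the GFP+ colonies the pluripotency list averaged 8.38, 9.66 and 7.18 on replicates 1, 2 and 3, and in the GFP- colonies 6.41, 9.43 and 9.81. GFP- replicate 1 thus went against the label of reprogrammed colonies. GFP+ replicate 2, labelled partially reprogrammed, lay within the iPS range on this list. Correlations across genes were 0.994 to 0.995 between iPS arrays or between leukemia arrays, 0.937 to 0.975 between GFP+ arrays and 0.887 to 0.970 between GFP- arrays. GFP+ replicate 3 and GFP- replicate 1 stood apart from the others of their groups, and counts are given with and without them. The leukemia arrays also carried granulocyte RNA, with Ngp, a neutrophil granule protein gene, at 11.04 to 11.16 there and at 4.60 to 5.76 elsewhere.

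Compared with the leukemia, more chemokine system genes were lower than higher in each of the other 3 groups. Values are log2 levels of 1 probe set per gene, differences are log2 ± standard error of the fit, and a gene was called at an adjusted p under 0.05 (limma, Benjamini-Hochberg over all 22180 genes). In GFP+ colonies 2 members rose and 8 fell, which is 19.6% of the 51, while 21.9% of all genes were called (9.60% higher and 12.3% lower). In GFP- colonies 1 rose and 11 fell, 23.5% of the members, with 21.0% of all genes called (9.02% higher and the rest lower). In iPS cells 2 rose and 12 fell, 27.5% of the members, with 24.3% of all genes called (12.4% higher and 11.9% lower). The shares of members called were near those of all genes. The median difference of the 51 was -0.12, -0.24 and -0.19 in GFP+ colonies, GFP- colonies and iPS cells, against -0.04, -0.01 and -0.03 over all genes.

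These 3 comparisons share the leukemia arrays. Ccr7, Ccr9, Cxcr4, Cxcr5, Ccl3, Cxcl2 and Xcl1 were called lower in all 3. Of the 17 receptors 5 fell in GFP+ colonies (29.4%), 5 in GFP- colonies (29.4%) and 6 in iPS cells (35.3%), and every receptor call against leukemia was a decrease. Of the 34 ligands 3, 6 and 6 fell and 2, 1 and 2 rose in the same order. With GFP+ replicate 3 and GFP- replicate 1 left out, an alternative chosen after seeing the data, the members called higher and lower numbered 4 and 12 in GFP+ colonies, 1 and 15 in GFP- colonies and 5 and 20 in iPS cells. The share of all genes called rose as well, to 32.6%, 32.9% and 36.4%. The 2 increases in GFP+ colonies became 4 without GFP+ replicate 2 and 1 without GFP+ replicate 3, leukemia replicate 1 or leukemia replicate 3, and the 1 increase in GFP- colonies became 2 without GFP- replicate 3. In these fits of GFP+ colonies 15.4% to 21.5% of all genes were called, and in that of GFP- colonies 21.1%. In the iPS comparison, the 12 decreases became 7 without iPS replicate 1, iPS replicate 2 or leukemia replicate 3, and the 2 increases became 1 or fewer without any 1 of the 6 arrays. The share of all genes called in iPS cells fell in these fits as well, from 24.3% to between 17.6% and 18.1%.

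**Figure D1:**
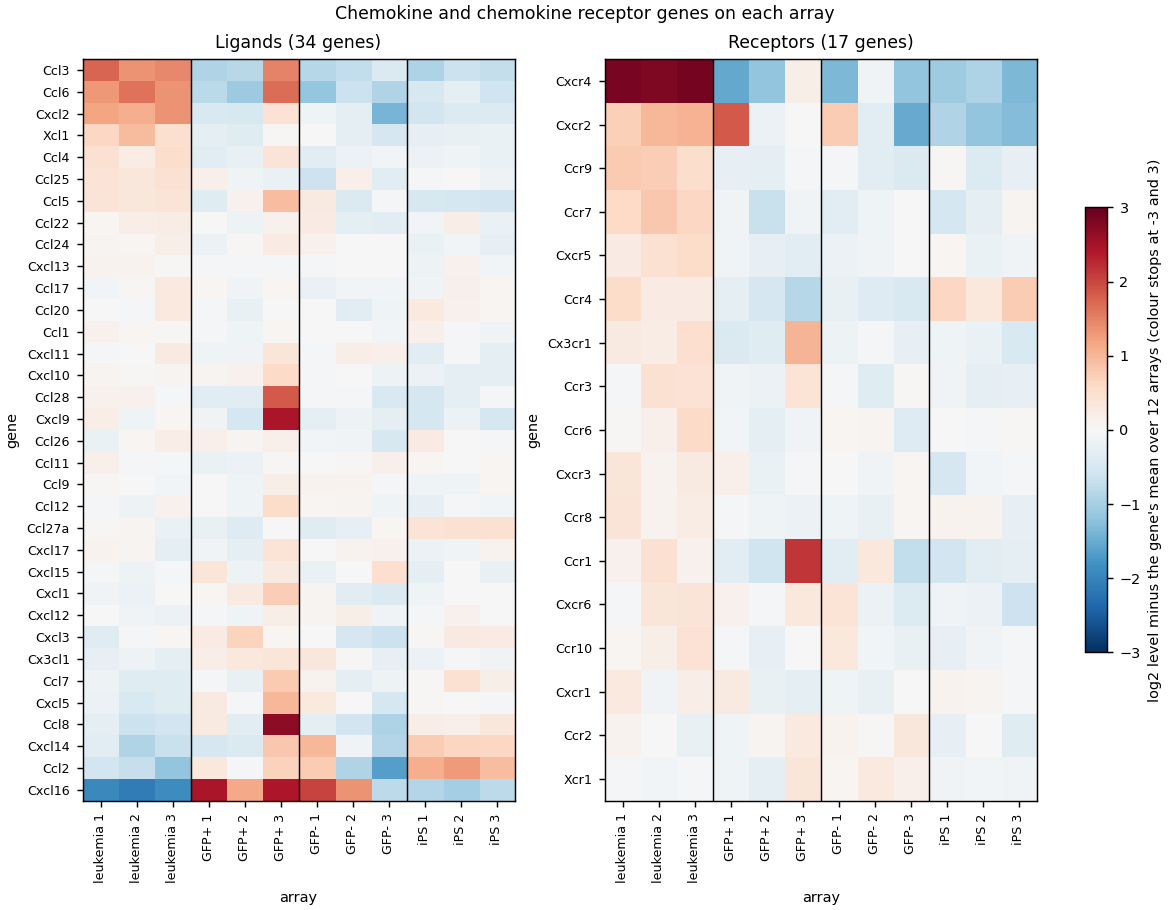
Log2 level of each chemokine system gene on each of the 12 arrays (columns), minus the gene's mean over the 12 arrays, with 34 ligands on the left and 17 receptors on the right. The colour stops at -3 and 3, red is higher and blue is lower. The leukemia arrays are red for Cxcr4, Ccl3, Ccl6 and Cxcl2, and the column of GFP+ replicate 3 is red for a group of ligands and for Ccr1.

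**Figure D2:**
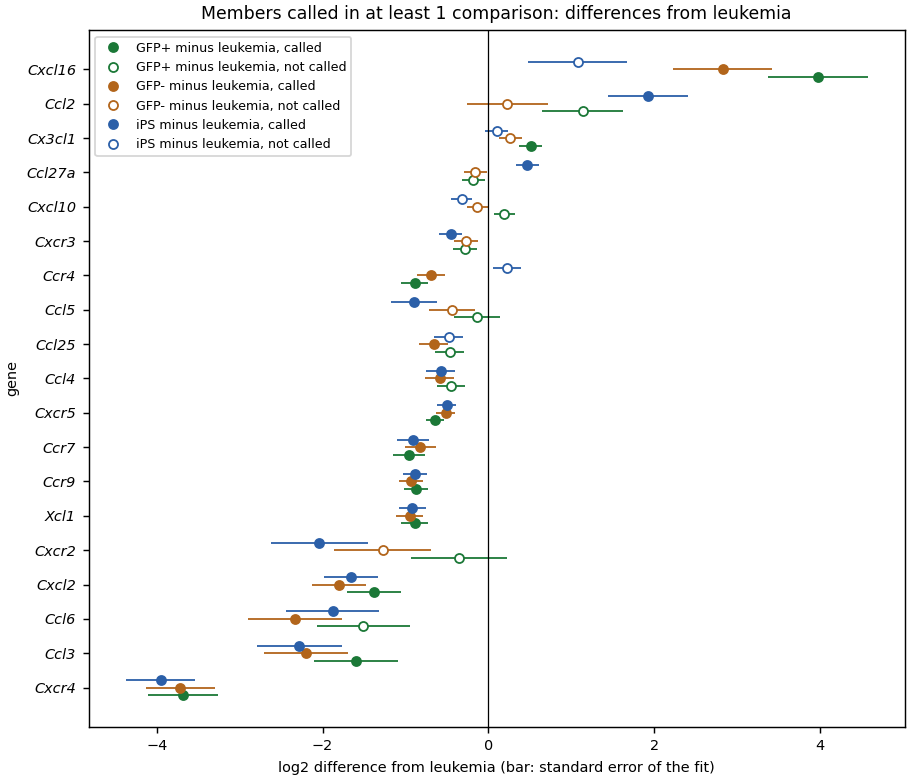
Log2 difference from leukemia (x axis) of the 19 members called in at least 1 of the 6 comparisons (y axis), for GFP+ colonies, GFP- colonies and iPS cells. Bars are the standard error of the fit, and filled points were called. Cxcr4 lies near -4 in all 3 groups, and Cxcl16 lies at 3.98 in GFP+ and 2.83 in GFP- colonies.

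Cxcr4, the receptor for Cxcl12, had the largest decrease among the members. It measured 11.56, 11.52 and 11.58 on the leukemia arrays, 7.17, 7.53 and 8.90 on the GFP+ arrays, 7.38, 8.61 and 7.53 on the GFP- arrays and 7.64, 7.79 and 7.37 on the iPS arrays. The leukemia arrays were the highest, and the ranges of the other 3 groups overlapped. The difference from leukemia was -3.69 ± 0.42 in GFP+ colonies (12.9-fold lower, adjusted p = 1.37e-04, limma), -3.71 ± 0.42 in GFP- colonies (13.1-fold, adjusted p = 1.28e-04) and -3.95 ± 0.42 in iPS cells (15.5-fold, adjusted p = 7e-05). In these bulk samples, fewer cells of a type and less RNA per cell cannot be told apart, for this and all later genes. Its ligand Cxcl12 was not called in any comparison. Cxcl12 lay at 5.87, 5.79 and 5.71 in leukemia, 5.86, 5.77 and 6.08 in GFP+ colonies, 5.96, 6.07 and 5.78 in GFP- colonies and 5.86, 6.02 and 5.91 in iPS cells, and the groups overlapped.

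Ccr9 and Ccr7 were also lower outside the leukemia, by less than 1 log2 unit. Ccr9, the receptor that responds to Ccl25 in thymus and gut, read 5.72, 5.67 and 5.47 in leukemia and between 4.51 and 4.98 on the 9 other arrays. All these levels were below the array medians, which were 5.76 to 5.82 over all probe sets. The differences of Ccr9 were -0.88 ± 0.15 in GFP+ colonies (adjusted p = 0.0016, limma), -0.94 ± 0.15 in GFP- colonies and -0.88 ± 0.15 in iPS cells. Ccr7, which directs T cells to lymphoid tissue, read 6.96, 7.15 and 6.97 in leukemia, 6.26, 5.69 and 6.25 in GFP+ colonies, 6.03, 6.22 and 6.36 in GFP- colonies and 5.82, 6.08 and 6.44 in iPS cells. For both receptors every leukemia array was above every other array. Ccr7 differed by -0.96 ± 0.19 (adjusted p = 0.00463, limma), -0.82 ± 0.19 (adjusted p = 0.0112) and -0.91 ± 0.19 (adjusted p = 0.00544) in GFP+ colonies, GFP- colonies and iPS cells. The Ccr7 ligands Ccl19 and Ccl21 were on probe sets with several symbols and were not tested here.

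Ccl25, the ligand of Ccr9, was 7.31, 7.26 and 7.36 in leukemia, 7.05, 6.77 and 6.70 in GFP+ colonies, 6.29, 7.05 and 6.59 in GFP- colonies and 6.84, 6.90 and 6.75 in iPS cells. Each leukemia array was above all others, but only the decrease in GFP- colonies was called, at -0.66 ± 0.17 (adjusted p = 0.0199, limma). That call was lost without leukemia replicate 1, 2 or 3 (adjusted p = 0.0516 to 0.0695) and with the 6 arrays of both groups fitted alone (adjusted p = 0.084). With array weights the difference was -0.35 (adjusted p = 0.0367). In GFP+ colonies the difference was -0.47 ± 0.17 (adjusted p = 0.08) and in iPS cells -0.48 ± 0.17 (adjusted p = 0.0699). No difference among these 3 groups was called.

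Ccr4, a receptor of T helper cells that binds Ccl17 and Ccl22, was lower in the colonies than in leukemia and in iPS cells. On every array Ccr4 lay near or below the array medians, which were 5.76 to 5.82 over all probe sets. It measured 5.81, 5.51 and 5.51 in leukemia, 4.98, 4.76 and 4.42 in GFP+ colonies, 5.04, 4.88 and 4.82 in GFP- colonies and 5.88, 5.59 and 6.04 in iPS cells. All 6 colony arrays were below all 6 others, and the leukemia and iPS ranges overlapped. Ccr4 differed from leukemia by -0.89 ± 0.17 in GFP+ (adjusted p = 0.00333, limma) and -0.70 ± 0.17 in GFP- colonies (adjusted p = 0.0132, and 0.0603 without leukemia replicate 1). It was higher in iPS cells than in GFP+ colonies by 1.12 ± 0.17 (adjusted p = 0.00484) and than in GFP- colonies by 0.92 ± 0.17 (adjusted p = 0.0145). The second of these was lost without iPS replicate 1 or 3 (adjusted p = 0.0671 and 0.0736) and in a fit of those 6 arrays (adjusted p = 0.0614). Ccl17 and Ccl22 were not called in any comparison.

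**Figure D3:**
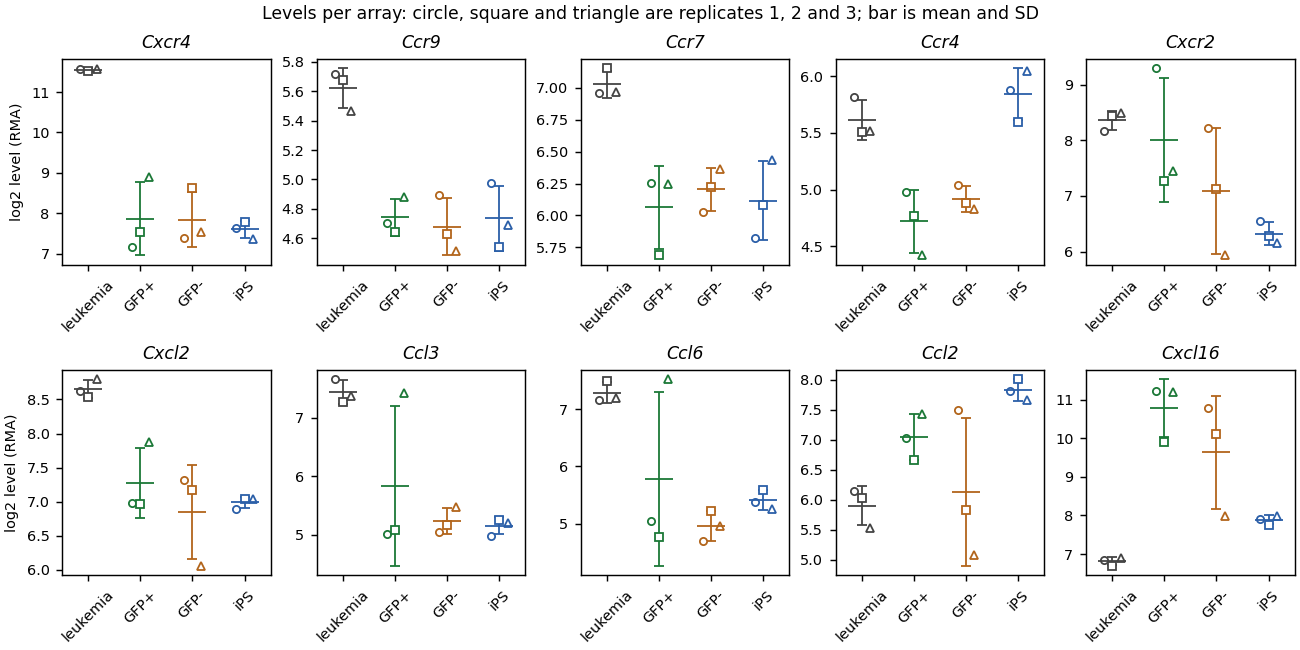
Log2 level (y axis) on each array for 10 members in the 4 groups (x axis), with circle, square and triangle for replicates 1, 2 and 3 and bars for the mean and SD of 3 arrays. Each panel has its own axis. Cxcr4, Ccr9 and Ccr7 are highest on the 3 leukemia arrays, Ccr4 is lowest in both colony groups, and Ccl3 and Ccl6 have 1 high GFP+ array, replicate 3.

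Cxcr2, the neutrophil receptor for Cxcl1, Cxcl2, Cxcl3 and Cxcl5, varied widely among the colonies. It was 8.17, 8.43 and 8.49 in leukemia, 9.29, 7.28 and 7.46 in GFP+ colonies, 8.21, 7.12 and 5.93 in GFP- colonies and 6.55, 6.27 and 6.15 in iPS cells. The iPS arrays lay below all leukemia and GFP+ arrays, and the highest array of all was GFP+ replicate 1. The decrease in iPS cells was -2.04 ± 0.58 (4.11-fold, adjusted p = 0.0269, limma), and it was lost without any 1 of the 6 arrays compared (adjusted p up to 0.0855). In the same comparison 10 genes of a 20-gene myeloid list (macrophages and granulocytes) were lower and 1 was higher. Ngp, Camp and S100a8 lay at 11.04 to 11.16, 9.35 to 9.59 and 10.25 to 10.34 in leukemia, and at most at 5.76, 4.37 and 5.63 on the other arrays. Ltf, another granule gene, was 9.13 to 9.31 in leukemia, 7.73, 6.40 and 9.63 in GFP+ colonies, 5.31 to 6.39 in GFP- colonies and 5.39 to 5.77 in iPS cells. The part of granulocytes in the Cxcr2 level was not tested.

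Cxcr5, the receptor for Cxcl13 on B cells and follicular T cells, and Cxcr3, a receptor of activated T cells, had smaller decreases and are named after their values were seen. Cxcr5 was 6.39, 6.60 and 6.69 in leukemia and 5.83 to 6.19 on the other arrays, with differences of -0.64 ± 0.11, -0.52 ± 0.11 and -0.50 ± 0.11 (adjusted p = 0.00236, 0.00839 and 0.00833, limma). Its 3 leukemia arrays were above the 9 others. Cxcr3 was called only in iPS cells, at -0.46 ± 0.14 (adjusted p = 0.0403), with 6.29, 6.05 and 6.21 in leukemia and 5.44, 5.85 and 5.91 in iPS cells. That call was lost without iPS replicate 1 or 2 or any 1 leukemia array (adjusted p = 0.0539 to 0.15). It was kept with the 6 arrays of both groups fitted alone (adjusted p = 0.0197, limma). Cxcl13, Cxcl9 and Cxcl11, ligands of these receptors, were not called in any comparison.

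Among the ligands of Cxcr2, Cxcl2 was lower outside the leukemia and its genomic neighbours Cxcl1, Cxcl3 and Cxcl5 were not called. The 3 genes Cxcl1, Cxcl2 and Cxcl3 lie in 1 run of chemokine genes, and the 250 bases upstream of each RefSeq start (build GRCm38.p6, chromosome 5, plus strand) are shown because they share a motif while the values of the genes differed. Capitals mark the bases matching a pattern like the binding site of NF-kappa-B, GGGA and TTCC around 2 bases of any kind, which matched on both strands at overlapping positions. The windows are chr5:90890995-90891244 for Cxcl1, chr5:90903649-90903898 for Cxcl2 and chr5:90785851-90786100 for Cxcl3.
Cxcl1: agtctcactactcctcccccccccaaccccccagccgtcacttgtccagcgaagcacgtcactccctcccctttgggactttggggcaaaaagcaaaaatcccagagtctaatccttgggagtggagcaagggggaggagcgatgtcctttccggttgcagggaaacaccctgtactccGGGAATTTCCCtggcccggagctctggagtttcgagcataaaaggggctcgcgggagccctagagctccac
Cxcl2: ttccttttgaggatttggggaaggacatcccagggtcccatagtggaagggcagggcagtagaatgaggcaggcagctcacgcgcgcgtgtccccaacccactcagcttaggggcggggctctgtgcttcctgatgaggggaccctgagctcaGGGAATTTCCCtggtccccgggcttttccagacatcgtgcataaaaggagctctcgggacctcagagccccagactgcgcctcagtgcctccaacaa
Cxcl3: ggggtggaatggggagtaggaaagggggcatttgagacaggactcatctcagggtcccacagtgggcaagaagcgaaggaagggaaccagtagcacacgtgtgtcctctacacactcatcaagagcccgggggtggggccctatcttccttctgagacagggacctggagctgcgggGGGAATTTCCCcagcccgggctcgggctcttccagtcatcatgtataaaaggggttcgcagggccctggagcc
The capitals span the same 11 letters in all 3 windows. The pattern was in 6 of 41 windows of members (Ccl1, Ccr3, Cxcl1, Cxcl10, Cxcl2 and Cxcl3) and in 1.21% of the 32851 windows of that length in the RefSeq table. The interferon response-like pattern, TTTC on each side of 2 bases of any kind, was in 2 of 41 (Cxcl10 and Cxcl14) against 2.98% of all, and TGANTCA, the AP-1 pattern, in 5 of 41 against 6.75%, with both strands searched. Windows were given for 37 of the 51 members, and a match describes letters only.

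Cxcl2 measured 8.63, 8.53 and 8.80 in leukemia, 6.98, 6.97 and 7.87 in GFP+ colonies, 7.32, 7.17 and 6.06 in GFP- colonies and 6.90, 7.04 and 7.04 in iPS cells. All leukemia arrays were above all others, and GFP+ replicate 3 was the highest of the rest. The differences were -1.38 ± 0.32 (2.60-fold, adjusted p = 0.0111, limma), -1.80 ± 0.32 (3.49-fold, adjusted p = 0.00254) and -1.66 ± 0.32 (3.16-fold, adjusted p = 0.00352) in GFP+ colonies, GFP- colonies and iPS cells. Cxcl1, a neutrophil attractant like Cxcl2, was 5.91, 5.82 and 6.00 in leukemia, 6.07, 6.27 and 6.74 in GFP+ colonies, 6.09, 5.69 and 5.57 in GFP- colonies and 5.88, 5.99 and 6.00 in iPS cells. Cxcl5, which epithelial cells secrete, was 5.51, 5.23 and 5.32, then 5.95, 5.61 and 6.68, then 5.97, 5.66 and 5.15, then 5.71, 5.70 and 5.63 in the same order. For both, the GFP+ arrays were above the leukemia arrays, with differences of 0.45 ± 0.18 for Cxcl1 (adjusted p = 0.106) and 0.73 ± 0.26 for Cxcl5 (adjusted p = 0.0735, limma). The NF-kappa-B inhibitor gene Nfkbia, itself induced by NF-kappa-B, differed from leukemia by -1.02, -1.66 and -1.98 in the 3 groups, all called lower. The NF-kappa-B genes Rela and Relb were not called against leukemia in any of these groups. NF-kappa-B activity and its part in the Cxcl2 level were not tested.

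Ccl3, Ccl4, Ccl5 and Ccl6, which attract monocytes and T cells, lie next to each other with Ccl9 in the genome. Of these 5 genes 1 was lower than leukemia in GFP+ colonies, 3 in GFP- colonies and 4 in iPS cells. Ccl3 was 7.66, 7.27 and 7.37 in leukemia, 5.01, 5.09 and 7.41 in GFP+ colonies, 5.05, 5.17 and 5.48 in GFP- colonies and 4.99, 5.26 and 5.21 in iPS cells. Only GFP+ replicate 3 reached the leukemia range. Ccl3 differed by -2.20 ± 0.51 in GFP- colonies (4.59-fold, adjusted p = 0.0108, limma) and -2.28 ± 0.51 in iPS cells (4.86-fold, adjusted p = 0.0077). In GFP+ colonies it differed by -1.60 ± 0.51 (adjusted p = 0.0471), a call lost after cyclic loess (adjusted p = 0.0536), with the 6 arrays of both groups fitted alone (adjusted p = 0.125) and without GFP+ replicate 1 or 2 or any 1 leukemia array (adjusted p = 0.0974 to 0.163). Without GFP+ replicate 3 that difference was -2.38.

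Ccl6, a ligand of Ccr1 made by myeloid cells, had the same high GFP+ array. It measured 7.16, 7.49 and 7.20 in leukemia, 5.04, 4.77 and 7.53 in GFP+ colonies, 4.69, 5.22 and 4.96 in GFP- colonies and 5.38, 5.59 and 5.25 in iPS cells. GFP+ replicate 3 was above all leukemia arrays, and the 8 other colony and iPS arrays were below them. The differences were -2.33 ± 0.56 in GFP- colonies (5.04-fold, adjusted p = 0.0135, limma, and 0.0527 without leukemia replicate 2) and -1.88 ± 0.56 in iPS cells (adjusted p = 0.0334, and 0.072 to 0.102 without any 1 of the 6 arrays). The iPS call was kept with those 6 arrays fitted alone. In GFP+ colonies Ccl6 was not called, at -1.51 ± 0.56 (adjusted p = 0.0842), and at -2.38 without replicate 3 (adjusted p = 1.59e-05).

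Ccl5, the T cell and macrophage chemokine RANTES, was 7.97, 7.92 and 7.96 in leukemia, 7.23, 7.70 and 8.52 in GFP+ colonies, 7.86, 7.15 and 7.54 in GFP- colonies and 7.10, 7.07 and 7.01 in iPS cells. The iPS arrays were the lowest of all. The iPS difference of -0.89 ± 0.28 was called (adjusted p = 0.0391, limma), but not without any 1 of the 6 arrays (adjusted p = 0.0907 to 0.107). Ccl4, a chemokine of activated T cells and macrophages, and Xcl1, the lymphotactin of T and NK cells, are named after their values were seen. Ccl4 was 6.65, 6.43 and 6.72 in leukemia, 5.89, 5.97 and 6.59 in GFP+ colonies, 5.89 to 6.12 in GFP- colonies and 5.99 to 6.07 in iPS cells. It was called at -0.59 ± 0.17 in GFP- colonies (adjusted p = 0.0328) and -0.58 ± 0.17 in iPS cells (adjusted p = 0.032). Leaving out leukemia replicate 1 or 3, GFP- replicate 1 or 2, or any 1 iPS array ended these calls (adjusted p = 0.0676 to 0.115). Both were kept with the 6 arrays of each comparison fitted alone (adjusted p = 0.0303 and 8.27e-04, limma). Xcl1 was 5.49, 5.82 and 5.35 in leukemia and 4.35 to 4.89 on all other arrays, near or below the array medians throughout. Its differences were -0.89 ± 0.16 in GFP+ colonies, -0.95 ± 0.16 in GFP- colonies and -0.92 ± 0.16 in iPS cells (adjusted p = 0.00304, 0.00213 and 0.00222, limma), while its receptor Xcr1 was not called.

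GFP+ replicate 3 had the highest level of the 12 arrays for 19 of the 51 members (37.3%), against 11.9% of all genes. On that array 9 members (17.6%) were at least 1 log2 unit above the higher of GFP+ replicates 1 and 2, against 745 of 22180 genes (3.36%). They were Cxcl9 by 2.55, Ccl6 by 2.48, Ccr1 by 2.47, Ccl8 by 2.41, Ccl3 by 2.32, Ccl28 by 2.15, Cx3cr1 by 1.37, Cxcr4 by 1.37 and Cxcl14 by 1.25, of which Cxcl9, Ccr1, Ccl28, Cx3cr1 and Cxcl14 are named after their values were seen. These are counts on 1 array, with no test.

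Ccl8, a monocyte attractant that the rule names for its wide range, was 4.66, 4.32 and 4.39 in leukemia, 5.23, 4.65 and 7.64 in GFP+ colonies, 4.67, 4.39 and 4.03 in GFP- colonies and 5.17, 5.12 and 5.30 in iPS cells. It was not called in any comparison. Ccr1, the myeloid receptor for Ccl3, Ccl5 and Ccl6, was 4.60, 4.32 and 7.07 in GFP+ colonies and 4.18 to 5.38 on the other arrays. Cxcl9, an interferon-induced ligand of Cxcr3, was 4.65, 4.24 and 7.20 in GFP+ colonies and 4.23 to 4.96 elsewhere. Ccl28, an epithelial chemokine, was 5.52, 5.48 and 7.67 in GFP+ colonies and 5.31 to 5.97 elsewhere. Of these 4 genes every other array lay below GFP+ replicate 3 by more than 1 log2 unit.

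Within the GFP+ colonies, macrophage and granulocyte genes (20 of 20 measured) averaged highest on replicate 3, as these members did. Over all groups the list was highest in leukemia. There Ccl6, Ccl8, Ccl28, Ccr1, Cx3cr1, Cxcl9 and Cxcl14 lay below their GFP+ replicate 3 level, Ccl3 lay around it and Cxcr4 above it. The list averaged 6.06, 5.83 and 7.76 on the GFP+ arrays, 6.10, 6.53 and 5.56 on the GFP- arrays, 7.91 to 7.95 in leukemia and 5.61 to 5.74 in iPS cells, and 11 of the 20 were at least 1 log2 unit higher on GFP+ replicate 3 than on replicates 1 and 2. The macrophage complement gene C1qb was 10.87 on that array, 9.11 on GFP- replicate 2 and at most 6.64 on the others. The granulocyte genes of the same list were divided. Ltf was 9.63 there, above every leukemia array, while Ngp, Camp, S100a8, S100a9, Elane and Mpo were 4.97, 3.64, 5.29, 6.59, 5.65 and 5.19, below every leukemia array. Pan-haematopoietic genes (6 of 6 measured) averaged 8.66 on GFP+ replicate 3 and 6.89 and 7.20 on replicates 1 and 2. The part of these cells in the chemokine values was not tested, and the values carry no detection calls, so no marker can be called absent.

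**Figure D4:**
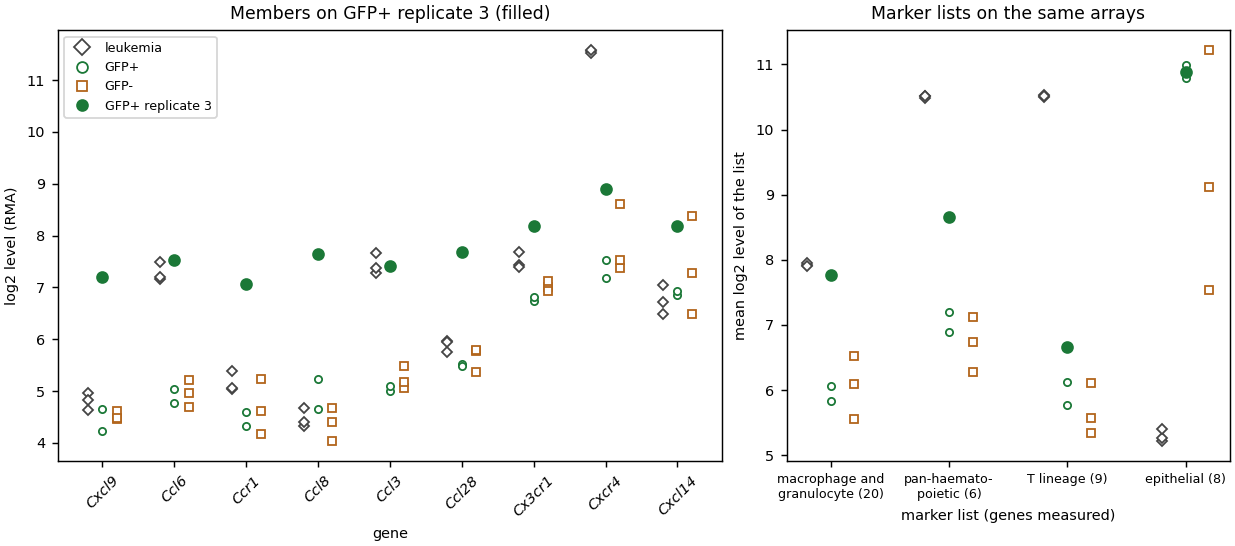
Left, log2 level (y axis) of the 9 members that were at least 1 log2 unit higher on GFP+ replicate 3 (filled circles) than on GFP+ replicates 1 and 2 (open circles), with leukemia (diamonds) and GFP- arrays (squares). Right, mean log2 level of 4 marker lists on the same arrays. The macrophage and granulocyte list was 7.76 on GFP+ replicate 3 against 6.06 and 5.83 on the other GFP+ arrays, and the epithelial list was 10.78 to 10.99 on all 3.

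Cxcl16, a membrane-bound ligand of Cxcr6 that can be shed, had the largest increase among the members. It was 6.84, 6.69 and 6.89 in leukemia, 11.23, 9.91 and 11.21 in GFP+ colonies, 10.80, 10.12 and 7.99 in GFP- colonies and 7.90, 7.76 and 8.0 in iPS cells. Every leukemia array was below every other array, and GFP- replicate 3 was within the iPS range. Cxcl16 rose by 3.98 ± 0.60 in GFP+ colonies (15.8-fold, adjusted p = 8.44e-04, limma) and by 2.83 ± 0.60 in GFP- colonies (7.11-fold, adjusted p = 0.00653), the second being 3.65 without GFP- replicate 3 (adjusted p = 8.86e-05). In iPS cells it was lower than in GFP+ colonies, at -2.90 ± 0.60 (adjusted p = 0.0169), a call lost without GFP+ replicate 1 or 3 or any 1 iPS array (adjusted p = 0.0527 to 0.0667). The difference of iPS cells from leukemia, 1.08 ± 0.60, was not called (adjusted p = 0.238), but was when the 6 arrays of those groups were fitted alone (adjusted p = 1.63e-05) and with array weights (adjusted p = 0.00257).

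Keratinocyte and epithelial genes (8 of 9 measured), like Cxcl16, averaged lowest in leukemia. Their mean was 5.22 to 5.40 in leukemia, 10.99, 10.78 and 10.88 in GFP+ colonies, 11.22, 9.11 and 7.53 in GFP- colonies and 7.82 to 7.86 in iPS cells, and 7 of the 8 rose in GFP+ and 5 in GFP- colonies against leukemia. The order of the GFP- replicates was the same on the list and for Cxcl16. It was not so for GFP+ replicate 2, with a list mean of 10.78 and Cxcl16 at 9.91, and GFP- replicate 2, with 9.11 and 10.12. The list was divided in iPS cells, with Krt6a at 3.85 to 4.32, near its leukemia level, and Cdh1 at 11.38 to 11.41. The part of epithelial cells in the Cxcl16 level was not tested. Cxcr6, the receptor for Cxcl16, stayed between 4.23 and 5.27 on the 12 arrays and was not called. Adam10, the protease that sheds Cxcl16 and Cx3cl1, was 10.05, 9.71 and 9.98 in GFP+ colonies and 8.60, 8.65 and 8.24 in iPS cells, a difference of -1.42 ± 0.40 (adjusted p = 0.0468, limma).

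**Figure D5:**
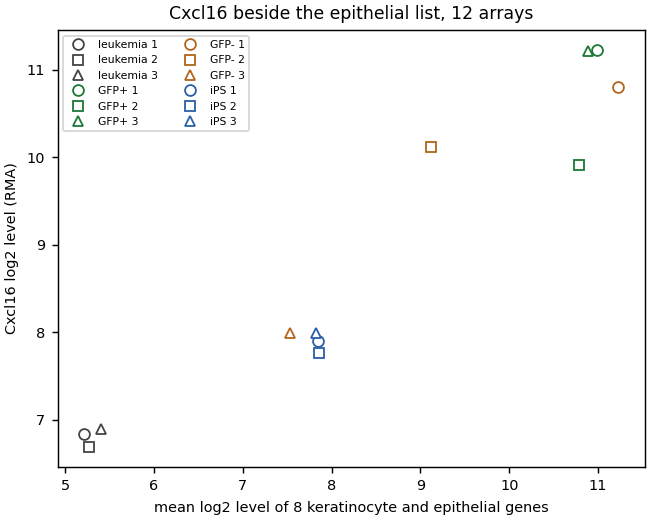
Log2 level of Cxcl16 (y axis) against the mean log2 level of 8 keratinocyte and epithelial genes (x axis), 1 point per array, with colour for the group and shape for the replicate. The 3 leukemia arrays are lowest on both axes, GFP- replicate 3 lies with the iPS arrays, and the GFP+ arrays and GFP- replicate 1 are highest on the x axis.

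Cx3cl1, or fractalkine, the other membrane-bound chemokine, had a smaller increase. It was 6.11, 6.20 and 6.10 in leukemia, 6.55, 6.66 and 6.73 in GFP+ colonies, 6.70, 6.39 and 6.11 in GFP- colonies and 6.18, 6.29 and 6.24 in iPS cells. The GFP+ arrays were above all leukemia and iPS arrays, and the GFP- arrays overlapped with every group. Cx3cl1 rose by 0.51 ± 0.14 in GFP+ colonies (1.43-fold, adjusted p = 0.0217, limma), a call lost without GFP+ replicate 3, leukemia replicate 1 or leukemia replicate 3 (adjusted p = 0.0588 to 0.0735). Its receptor Cx3cr1, a monocyte and macrophage gene, was not called.

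Ccl2, the monocyte attractant MCP-1 made by fibroblasts and many other cells, was highest in iPS cells. It was 6.14, 6.04 and 5.53 in leukemia, 7.03, 6.67 and 7.43 in GFP+ colonies, 7.49, 5.84 and 5.08 in GFP- colonies and 7.82, 8.01 and 7.66 in iPS cells. The iPS arrays were above all others, and the GFP- arrays spread over more than the whole leukemia range. The increase over leukemia was 1.93 ± 0.49 (3.80-fold, adjusted p = 0.0147, limma), and it was lost without iPS replicate 2 (adjusted p = 0.0542) or leukemia replicate 3 (adjusted p = 0.0612). It was kept with the 6 arrays of both groups fitted alone. Fibroblast and feeder genes (11 of 12 measured) averaged 7.19 to 7.33 in iPS cells, 5.98 to 6.04 in leukemia, 5.66 to 6.55 in GFP+ and 5.47 to 6.14 in GFP- colonies. Of the 11, 7 rose and 1 fell in iPS cells against leukemia. Thy1 of this list went down, from 10.29 to 10.52 in leukemia to 7.05 to 7.19 in iPS cells. The part of fibroblasts or feeder cells in the Ccl2 level was not tested. The neighbouring genes Ccl7, Ccl11, Ccl12, Ccl8 and Ccl1 were not called in iPS cells in the 12-array fit. With the 6 arrays of iPS cells and leukemia fitted alone, Ccl7 and Ccl8 were called higher, at 0.52 and 0.74 (adjusted p = 0.00692 and 4.3e-04, limma). Both were also called with array weights and without both colony arrays that stand apart.

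Cxcl14, a chemokine of skin and other epithelia named after its values were seen, was 8.13, 8.03 and 7.99 in iPS cells and 7.04, 6.48 and 6.71 in leukemia. The ranges were apart, but the difference of 1.31 ± 0.45 was not called (adjusted p = 0.0576, limma). It was called with the 6 arrays fitted alone (adjusted p = 5.45e-05), with array weights (adjusted p = 7.37e-05) and without both colony arrays that stand apart (adjusted p = 5.13e-04). Ccl27a, a skin T cell attractant also named after its values were seen, was 7.01, 7.05 and 7.05 in iPS cells and 6.21 to 6.68 elsewhere. It rose in iPS cells by 0.47 ± 0.14 over leukemia (adjusted p = 0.033), 0.65 ± 0.14 over GFP+ colonies (adjusted p = 0.0201) and 0.63 ± 0.14 over GFP- colonies (adjusted p = 0.0349). Ccl27a was the 1 member with more than 1 probe set of its own, and with the mean of those sets in place of the brightest the differences were 0.22, 0.35 and 0.27 ± 0.20 and none was called (adjusted p = 0.5, 0.307 and 0.499). The call against leukemia was also lost without any 1 of the 6 arrays, that against GFP+ colonies without GFP+ replicate 1 or any 1 iPS array, and that against GFP- colonies without GFP- replicate 1 or 2 or any 1 iPS array (adjusted p = 0.0519 to 0.128). The last was lost after cyclic loess (adjusted p = 0.057) and in the 6-array fit (adjusted p = 0.113) too.

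Between iPS cells and the colonies few members differed. Against GFP+ colonies 2 rose (Ccl27a and Ccr4) and 2 fell (Cxcl10 and Cxcl16), 7.84% of the 51, with 10.4% of all genes called (6.15% higher and 4.23% lower). Of the calls over all genes 59.2% were higher, and 46% after cyclic loess. Cxcl10, an interferon-induced ligand of Cxcr3, was 5.79, 5.74 and 5.79 in leukemia, 5.80, 5.83 and 6.27 in GFP+ colonies, 5.65, 5.72 and 5.55 in GFP- colonies and 5.53, 5.41 and 5.42 in iPS cells. The iPS arrays were the lowest, and GFP+ replicate 3 the highest. The difference of iPS cells from GFP+ colonies was -0.51 ± 0.13 (adjusted p = 0.032, limma), and it was lost without GFP+ replicate 3 (-0.36, adjusted p = 0.0634) or any 1 iPS array (adjusted p = 0.0842 to 0.109) and in the 6-array fit (adjusted p = 0.0736). The 2 decreases became 0 without GFP+ replicate 3 or any 1 iPS array, where 6 to 8 members had an unadjusted p under 0.05 in either direction, and the 2 increases became 1 without GFP+ replicate 1 or any 1 iPS array. The share of all genes called in these fits was 2.69% to 5.36%. With both arrays that stand apart left out, 5 members rose and 4 fell, and 20.4% of all genes were called.

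Against GFP- colonies 2 members were higher in iPS cells (Ccl27a and Ccr4), 3.92% of the 51, with 4.25% of all genes called (2.94% higher and 1.32% lower). Of the calls over all genes 69% were higher, and 58.8% after cyclic loess. The 2 increases became 0 without iPS replicate 1 or 3, where 5 members had an unadjusted p under 0.05, and 1 without iPS replicate 2 or GFP- replicate 2, while 1 decrease was called without GFP- replicate 3. Of all genes 1.13% to 1.25% were called without an iPS array, 3.51% without GFP- replicate 2 and 7.91% without GFP- replicate 3. With both arrays that stand apart left out, 6 rose, and 5.85% of all genes were called higher. Ccl2, at 1.70 ± 0.49, was not called (adjusted p = 0.0827, limma), but was without GFP- replicate 1 (2.37, adjusted p = 0.00219). Both iPS comparisons with colonies share the iPS arrays.

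No member was called between GFP- and GFP+ colonies. limma called 0 of the 51, with 0.00% of all genes called, and the smallest adjusted p among members was 0.719. At an unadjusted p under 0.05 there were 5 members, Cxcl3, Cxcl1, Cxcl10, Ccl8 and Ccl26, all lower in GFP- colonies, and 1413 of all genes. Cxcl3, a neutrophil attractant named after its values were seen, was 4.59, 5.02 and 4.41 in GFP+ and 4.34, 3.86 and 3.70 in GFP- colonies, with the ranges apart and a difference of -0.71 ± 0.20 (adjusted p = 0.719). Without GFP- replicate 1, 3 members were called lower in GFP- colonies, namely Ccl2 at -1.59 (adjusted p = 0.0178), Cxcl3 at -0.90 (adjusted p = 0.0304) and Cxcl1 at -0.73 (adjusted p = 0.0462), while 3.46% of all genes were called lower and 1.13% higher. With both arrays that stand apart left out the same 3 genes were called, at -1.40, -1.03 and -0.54, with 4.73% of all genes called.

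Of the 51 members 32 were not called in any of the 6 comparisons. The difference between the highest and lowest of the 12 arrays was under 1 log2 unit for 27 members, from 1 to under 2 for 13 and 2 or more for 11, with a median of 0.86 against 0.91 over all genes. The steadiest were Ccl1, which recruits T helper cells and lay between 5.34 and 5.61, and Cxcl13, the B cell follicle chemokine, between 5.60 and 5.90. The receptors Ccr2, Ccr3, Ccr6, Ccr8, Ccr10, Cxcr1 and Xcr1 stayed within 0.97 log2 units each. A further 33 probe sets named several genes, among them Ccl19, Ccl21 and Ccl27b, and the means of the 4 groups on each spread over 0.10 to 0.75, with a median of 0.22. Probes of closely related chemokine genes can bind each other's RNA, which these values cannot separate.

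Genes that act with chemokines were taken from a list of 48, of which 43 were measured. Against leukemia 15 fell and 2 rose in GFP+ colonies, 22 fell and 1 rose in GFP- colonies, and 22 fell and 1 rose in iPS cells. Of all genes 21.9%, 21.0% and 24.3% were called in these comparisons, in either direction, and 12.3% fell in GFP+ colonies and 11.9% in iPS cells. Of the 22 receptor signalling genes 11, 14 and 14 fell. Dock2, the Rac activator that leukocytes need to migrate, was 9.82 to 9.88 in leukemia and 4.93 to 7.20 elsewhere, and was lower, with differences of -3.39, -4.05 and -4.64 in GFP+ colonies, GFP- colonies and iPS cells (adjusted p = 3.78e-05, 9.81e-06 and 3.34e-06, limma). Pik3cg, the catalytic subunit of phosphoinositide 3-kinase gamma, was 7.55 to 7.89 in leukemia and 4.39 to 5.52 elsewhere, with decreases called in all 3 groups, at -2.86, -3.29 and -3.14. Plcb3, a phospholipase C beta found in many tissues, went the other way, from 6.98 to 7.36 in leukemia to 8.49 to 8.98 elsewhere, with increases of 1.55, 1.58 and 1.59. Grk5, a kinase that desensitises such receptors, rose in GFP+ colonies by 2.60 ± 0.68 (adjusted p = 0.0203).

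Dpp4, the peptidase that trims the ends of several chemokines, was 10.74 to 10.79 in leukemia and 5.78 to 9.16 elsewhere, and was lower by all 3 comparisons, at -2.47, -4.15 and -4.47 in GFP+ colonies, GFP- colonies and iPS cells. Il1b, a cytokine that induces chemokines, was 9.79 to 9.92 in leukemia and was lower as well, at -4.13, -4.73 and -5.43. On GFP+ replicate 3 Il1b was 7.66, against 4.65 and 4.89 on the other GFP+ arrays. Il1a, of the same list, was 4.55, 5.05 and 4.54 in leukemia and higher in GFP+ colonies, at 7.89, 7.59 and 6.40. It was 8.75, 4.91 and 4.37 in GFP- colonies and was not called against leukemia in any group. Among the atypical and decoy receptors, Ccrl2 was lower than in leukemia, at -1.81 ± 0.47 in GFP- colonies (adjusted p = 0.02, limma) and -2.48 ± 0.47 in iPS cells (adjusted p = 0.00313), and Ackr3, which takes up Cxcl12, was not called. The platelet chemokine gene Pf4 was 10.79 on GFP+ replicate 3, 9.81 on GFP- replicate 2 and 4.66 to 7.04 on the other arrays, and was not called either. Against GFP+ colonies 11 of the 43 fell in iPS cells, with 4.23% of all genes lower. Against GFP- colonies only Elmo1, the partner of Dock2, fell, by 1.65 ± 0.25 (adjusted p = 0.00711), with 1.32% of all genes lower.

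By RefSeq gene order 33 members lie in 9 runs with at most 3 other coding genes between neighbours. In the run Ccr9, Cxcr6, Xcr1, Ccr1, Ccr3 and Ccr2 only Ccr9 was called lower than leukemia. Among Cxcl5, Cxcl3, Cxcl15, Cxcl1 and Cxcl2 that was so only of Cxcl2, and among Ccl2, Ccl7, Ccl11, Ccl12, Ccl8 and Ccl1 only Ccl2 was called, higher in iPS cells. The run of Ccl5, Ccl9, Ccl6, Ccl3 and Ccl4 held the most calls against leukemia, with 4 of 5 lower in iPS cells.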

How the data were processed

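The authors deposited log2 expression values for each probe set, and RMA is the tool named, per the submitters' processing notes. Which RMA software and version they ran is not given in the sources used here. RMA commonly equalises the arrays' distributions, and array medians lay between 5.76 and 5.82, so a shift of most genes in 1 direction would not be seen. No background or detection values were used. The number of arrays, 3 per group, limits the precision. Of 41345 probe sets 23521 had 1 gene symbol and were used, and 1814 had several. The brightest probe set stood for a gene, which left 22180 genes, and all 51 members had the same symbol in RefSeq (GRCm38.p6), which also gave neighbours and promoter windows.

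The 12 arrays were fitted together, with a mean for each group, in limma 3.58.1 (R 4.3.3) with empirical Bayes moderation, 6 comparisons were taken from it, and p-values were adjusted by Benjamini-Hochberg over all genes. The fit was tested on simulated data with the same spread in every group, so the unequal spread of these groups was not tested. The members, the marker and pathway lists and the rules were chosen with earlier results of these data known. Values of every array are given for members called with a log2 difference of at least 1, for 12 members whatever their values (Cxcr4, Cxcl12, Ccr7, Ccr9, Ccl25, Ccl2, Cxcl1, Cxcl5, Cxcl10, Ccl5, Cx3cl1 and Cxcl16), and for uncalled members whose arrays span at least 3. Alternatives were cyclic loess, a filter on low genes, the mean of a gene's probe sets, trend and robust moderation, array weights, the replicate block, fits of 6 arrays, leaving out each array in turn and, chosen after seeing the data, leaving out both colony arrays that stand apart.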

Additional observations from a re-analysis of the deposited data

How the results depend on the processing

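No called difference of a named member changed its sign under any alternative that tested it. Of the 30, 18 kept their call in every alternative that tested them, but the filter on low genes tested only 17 of the 30. With array weights, the members called higher and lower against leukemia numbered 5 and 10 in GFP+ colonies, 2 and 17 in GFP- colonies and 8 and 20 in iPS cells, with 36.9%, 39.1% and 47.5% of all genes called. They numbered 4 and 5 for iPS cells against GFP+ colonies, 6 and 3 against GFP- colonies, and 0 and 3 for GFP- against GFP+ colonies (8 members had an unadjusted p under 0.05), with 31.5%, 19.8% and 5.93% of all genes called. Without both colony arrays that stand apart, they were 4 and 12, 1 and 15, and 5 and 20 against leukemia, 5 and 4 for iPS cells against GFP+ colonies, 6 higher against GFP- colonies, and 3 lower in GFP- than in GFP+ colonies. With genes above the median level only, 14 members were tested, and 3, 4 and 5 fell against leukemia in GFP+ colonies, GFP- colonies and iPS cells, with 38.5%, 36.2% and 38.8% of the genes tested called. For iPS cells 1 rose and 1 fell against GFP+ colonies and 1 rose against GFP- colonies, with 21.9% and 6.68% of the genes tested called. The mean of a gene's probe sets left 1 member higher in iPS cells against each other group. Of all genes 24.2%, 10.1% and 4.10% were called there against leukemia, GFP+ colonies and GFP- colonies. Fitting the 6 arrays of iPS cells and leukemia alone called 7 higher and 21 lower (47.5% of all genes), and the same for iPS cells and GFP- colonies called 0 (0.857% of all genes), with 9 members at an unadjusted p under 0.05. Cyclic loess called 1 member higher in iPS cells than in GFP- colonies, with 3.99% of all genes called. The causes were not tested, apart from the fewer genes under the filter.

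Replicate numbers did not pair the arrays: of 18 pairs with the same number, 2 had correlated deviations over 0.1 (range -0.377 to 0.322), and 7 were best with their own number. With the replicate block, 1 member was higher and 10 were lower in iPS cells than in leukemia, 2 were higher and 1 was lower than in GFP+ colonies, and 1 was higher than in GFP- colonies. Of all genes 23.0%, 8.63% and 3.33% were called in these comparisons. The block ended the limma calls of Ccl5, Cxcr3 and Ccl27a between iPS cells and leukemia (adjusted p = 0.0539, 0.0598 and 0.0536), of Cxcl10 between iPS cells and GFP+ colonies (0.0549) and of Ccl27a between iPS cells and GFP- colonies (0.0621).

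Leaving out each array in turn called 1 to 4 members higher and 7 to 11 lower in GFP+ colonies than in leukemia, 1 to 2 and 8 to 12 in GFP- colonies, and 0 to 1 and 7 to 8 in iPS cells. The share of all genes called ranged from 15.4% to 21.5%, 14.7% to 27.2% and 17.6% to 18.1% in the same order. Against GFP+ colonies 1 to 2 were higher and 0 to 2 lower in iPS cells, against GFP- colonies 0 to 2 and 0 to 1, and between the colonies 0 were higher and 0 to 3 lower in GFP- colonies. Here the share of all genes called ranged from 2.69% to 15.4%, 1.13% to 7.91% and 0.00% to 4.59%.

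Of the 78 uncalled differences of the 18 named members 30 changed sign in at least 1 setting. Among them were those of Ccl5 between GFP+ colonies and leukemia (-0.49 to 0.16 with single arrays left out, the highest without GFP+ replicate 1) and of Cxcr4 between iPS cells and GFP- colonies (-0.47 to 0.15, the highest without GFP- replicate 2). With array weights this difference of Cxcr4 was -0.81 and was called (adjusted p = 0.0459, limma). That of Ccl6 between iPS cells and GFP+ colonies ranged from -0.88 to 0.50 with single arrays left out. It became 0.11 with array weights and 0.50 without GFP+ replicate 3, or without both arrays that stand apart, where it was called (adjusted p = 0.0495, limma). Signal over background was not measured.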
